A study of Homo sapiens with 18 samples.

Results

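The mRNAs of 8 liver transcription factors that are not nuclear receptors were followed in HepG2 cells: the forkhead factors FOXA1, FOXA2 and FOXA3, the C/EBP factors CEBPA and CEBPB, the cut-homeodomain factor ONECUT1, the prospero factor PROX1 and the zinc finger factor GATA4. They were taken by symbol, 8 of 35238 gene rows of the count table, and all 8 were among the 14797 genes that passed the filter on low counts. HepG2 is a human hepatoblastoma-derived line, used here in a study of ligands of the nuclear receptor LRH-1. The 18 libraries form 6 groups of 3. The vehicle groups received DMSO at 0.1% or Ethanol at 0.1%. The compounds 6N, 10CA and 6N-10CA, all small molecules, were dosed at 10 µM each, and the phospholipid DLPC was given at 100 µM. All groups were kept in medium with charcoal-stripped serum, which is depleted of steroids and other lipophilic molecules. Treatment length and passage number were not given in the sources used here. DMSO was set against the small molecules and Ethanol against DLPC from knowledge of the study, since the labels do not pair them.

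Hepatocyte identity is held by a network of such factors that bind each other's genes and the genes of plasma proteins and metabolic enzymes. FOXA factors open compacted chromatin at liver enhancers, C/EBP factors drive metabolic and acute phase genes, and ONECUT1, PROX1 and GATA4 take part in forming the liver from foregut endoderm. PROX1 is also known as a corepressor that binds LRH-1.

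Depth was similar across the libraries, with total counts from 28135967 to 34992442, and replicates of a group differed by more than counting noise. The 7 hepatocyte markers, among them ALB and AFP, summed to 38000 to 47800 CPM in every library (CPM, counts scaled to a common library size). Of the 6 biliary markers KRT7 and CFTR did not exceed 0.122 CPM, whereas KRT19 ranged from 454 to 627 CPM. Those 6 summed to 1760 to 2230 CPM, with 4 past the filter. Of 6 stromal markers 2 passed the filter and the list summed to 86.6 to 116 CPM, nearly all of it ACTA2, while COL1A1, COL1A2, COL3A1, DCN and LUM did not exceed 0.514 CPM. The 5 endothelial markers summed to 29.9 to 46.6 CPM, 3 past the filter, among them CDH5 at 15.4 to 24.1 CPM. The 6 blood markers summed to 335 to 512 CPM, 3 past the filter, with LYZ at 245 to 398 CPM and PTPRC and CD3E at no more than 0.493 CPM. The endothelial marker KDR and the blood marker HBB were at 0 counts in all libraries, which allows up to 0.107 CPM, a floor of 3 counts in the smallest library, for counting error only. Fewer cells and less RNA per cell cannot be told apart in such bulk samples. The labels do not say that replicates were separate cultures, so the p-values reflect only how far these samples spread, and that spread may be technical.

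Reference sequence upstream of the RefSeq start sites of FOXA1 and CEBPA is shown. These genes were picked because FOXA1 had the smallest edgeR p-value of the 8 factors, without a term for the replicate number in the fit. CEBPA had the largest dependence on that number. Both stretches come from RefSeq (GRCh38.p14), minus strand, 5′ to 3′. RefSeq entries of promoters matched 5 of the 8 factors, FOXA1, FOXA3, CEBPA, CEBPB and ONECUT1. Capitals mark the match of a searched motif, and bases that GENCODE release 29 places in a FOXA1 exon were left out. The FOXA1 stretch lies inside the GENCODE span of the gene, outside its exons. The last 30 bases of the CEBPA stretch lie in the CEBPA exon of GENCODE release 29, which starts upstream of the RefSeq start.
FOXA1, chr14:37595349-37595499: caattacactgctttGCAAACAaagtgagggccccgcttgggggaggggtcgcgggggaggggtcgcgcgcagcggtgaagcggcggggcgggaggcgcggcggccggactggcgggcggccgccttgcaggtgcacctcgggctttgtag
CEBPA, chr19:33302535-33302784: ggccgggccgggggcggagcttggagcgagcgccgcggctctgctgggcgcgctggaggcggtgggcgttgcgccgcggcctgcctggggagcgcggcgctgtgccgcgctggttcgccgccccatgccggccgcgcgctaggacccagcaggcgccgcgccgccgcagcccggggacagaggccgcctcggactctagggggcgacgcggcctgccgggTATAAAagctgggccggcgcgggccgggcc
The capitals in the FOXA1 stretch are the forkhead motif TGTTTGC read on the opposite strand, 235 to 229 bases before the RefSeq start, a match that 3.23% of 35116 windows of 250 bases hold. The capitals in the CEBPA stretch are the TATA box TATAAA, 30 to 25 bases before the RefSeq start and thus the first 6 bases of the GENCODE exon, held by 10.7% of windows. FOXA3 holds the same TATA box at the same distance.

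Motifs were searched on both strands of the 250 bases before each start, and a match is a description of letters only. ONECUT1 held the CCAAT box CCAAT, found in 32% of windows, and the E-box CACGTG, found in 6.34%. The LRH-1 half-sites AAGGTCA and AAGGCCA, present in 3.44% and 4.35% of windows, were in none of the 5. The other forkhead letters TGTTTAC (2.98% of windows), the GATA motif AGATAA (9.17%) and the C/EBP core TTGCNNAA (9.05%) were not in these 5 windows either. The CEBPA window was 81.2% GC and the FOXA1 window 67.2%, beside a median of 58% over all windows.

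All 8 factors were expressed in every library, and their order was nearly fixed. On the scale of CPM per kb of exon, CEBPA was highest at 97.2 ± 10.8 (SD, n = 18), higher than 96.9% of the 13898 tested genes with a known length. FOXA2 at 34.7 ± 2.72 and FOXA1 at 32.5 ± 1.95 CPM per kb came next, with overlapping ranges over the libraries. GATA4 followed at 25.8 ± 1.22 and CEBPB at 20.3 ± 2.00 CPM per kb, each apart from its neighbours in every library. FOXA3 at 12.1 ± 1.14 and PROX1 at 10.3 ± 0.759 CPM per kb overlapped again. ONECUT1 was lowest at 3.07 ± 0.358 CPM per kb, at the 43.7th percentile. Counts were large enough that counting noise was small for most of them, from 5946 to 9445 for CEBPA and from 258 to 440 for ONECUT1.

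**Figure D1:**
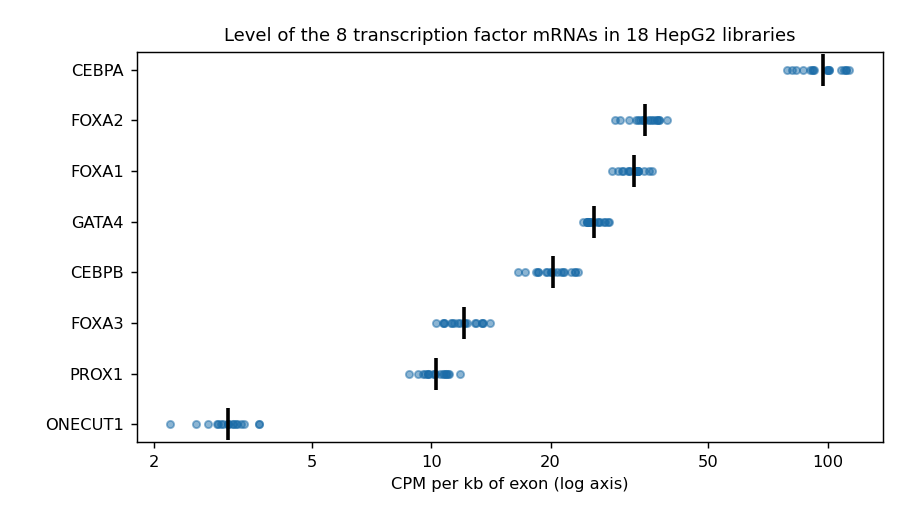
Level of each factor in CPM per kb of exon (log axis), with 1 point per library and a bar at the mean of 18 libraries. The ranges of neighbouring factors overlap for FOXA2 with FOXA1 and for FOXA3 with PROX1, and CEBPA stands highest at 97.2.

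Within the FOXA family, FOXA2 made up 43.8 ± 2.58% of the summed level per kb, FOXA1 41.0 ± 2.93% and FOXA3 15.2 ± 1.29% (SD, n = 18). CEBPA exceeded CEBPB by 4.81 ± 0.624 times per kb over the same libraries. Exon lengths are unions over GENCODE release 29 transcripts, not the lengths of the transcripts these cells make, so the order between genes is approximate.

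The highest library exceeded the lowest by 1.16 times for GATA4, 1.26 for FOXA1, 1.34 for PROX1, 1.35 for FOXA2, 1.37 for FOXA3, 1.42 for CEBPB, 1.43 for CEBPA and 1.68 for ONECUT1. The SD of log2 CPM over 18 libraries was 0.07 for GATA4 and 0.09 for FOXA1, the 15.6th and 35.7th percentile of the 10686 genes above 5 CPM. The other 6 were above the middle of those genes: PROX1 at the 55.2nd percentile, FOXA2 at the 62.2nd, FOXA3 at the 75.7th, CEBPB at the 79.3rd, CEBPA, with an SD of 0.16, at the 86.0th and ONECUT1, with 0.18, at the 89.2nd.

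**Figure D2:**
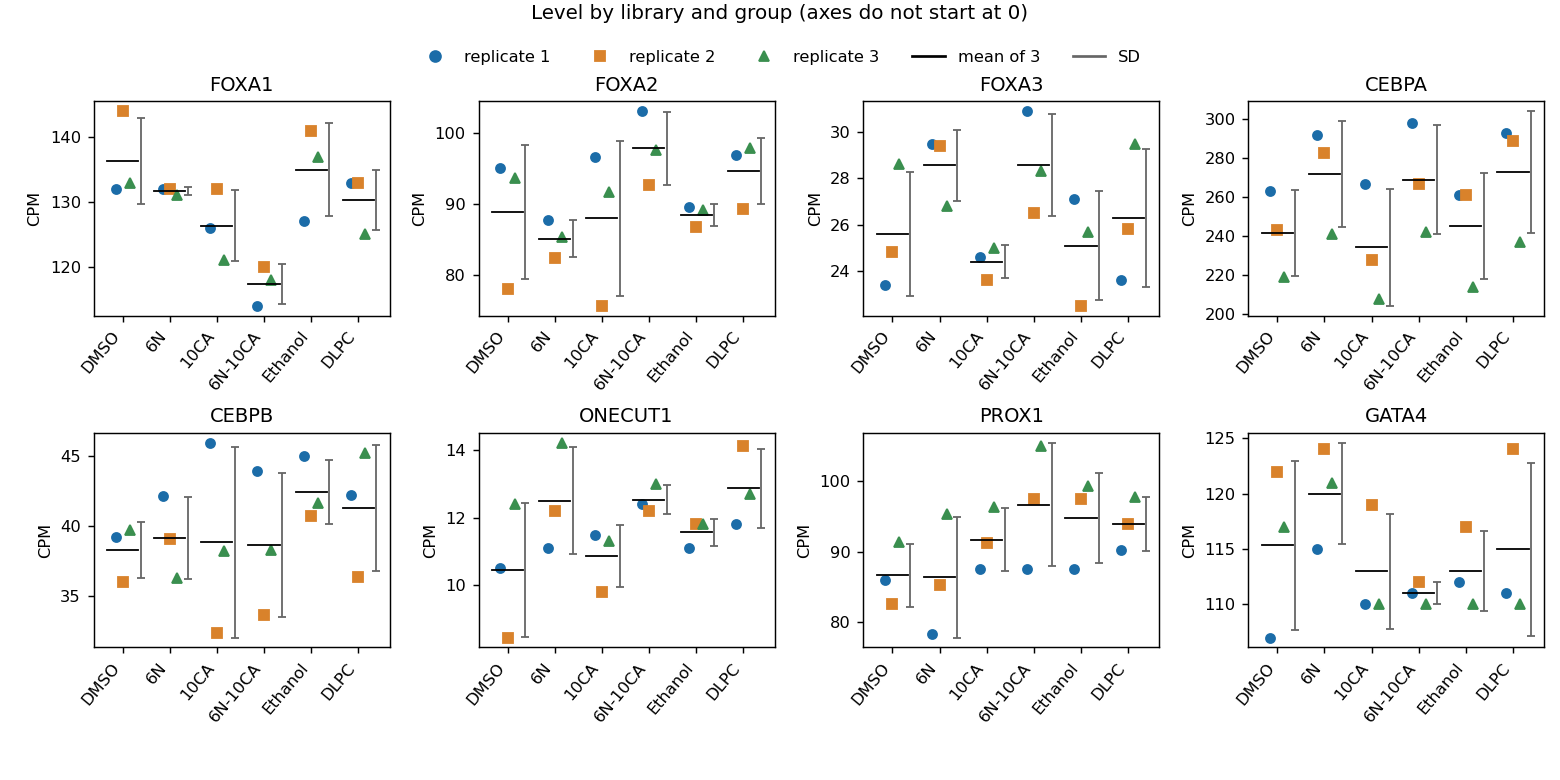
CPM of the 8 factors in each library, by group, with the mean of 3 as a bar and the SD as an error bar; the axes do not start at 0. The FOXA1 libraries with 6N-10CA, at 114 to 120 CPM, lie below those of every other group, while the other panels show groups that mostly overlap. How many of all genes have a group so set apart was not computed.

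FOXA1 (ENSG00000129514.5, GRCh38 chromosome 14, 37589984 to 37596059, minus strand) is a pioneer factor that opens chromatin for other regulators. It was lowest with 6N-10CA, at 114, 120 and 118 CPM in replicates 1 to 3. The DMSO libraries held 132, 144 and 133 CPM, and all of them were above all of those with 6N-10CA. The 6N libraries were at 132, 132 and 131 CPM, close to the lower DMSO values, and the 10CA libraries at 126, 132 and 121 CPM lay between. Ethanol gave 127, 141 and 137 CPM and DLPC 133, 133 and 125 CPM, which overlap. All 3 libraries with 6N-10CA were thus below every library of the other 5 groups, and within each replicate number 6N-10CA was the lowest of the 6 groups. The share of all genes with a group so set apart was not computed. Against DMSO alone, the libraries with 6N-10CA did not overlap for 14.8% of all genes.

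The FOXA1 difference of 6N-10CA against DMSO was a log2 fold change of -0.21 (SE 0.05, 95% interval -0.32 to -0.11), a level 0.86 times that of DMSO. With edgeR's quasi-likelihood test and Benjamini-Hochberg adjustment over all tested genes it did not pass the threshold of 0.05 (adjusted p = 0.08367). With DESeq2, which the submitters' processing notes also name, it passed (adjusted p = 0.005155), as did 173, or 0.692%, of the 24982 genes with a p-value. That base includes genes that the filter on low counts removed for edgeR. Shares of all genes called by DESeq2 use it throughout and are not on the base of edgeR's shares. The FOXA1 difference also passed with edgeR against the average of both vehicles (adjusted p = 0.02608), as did 0.872% of all genes. Leaving out 1 library at a time kept the log2 fold change between -0.23 and -0.17. None of these edgeR fits called FOXA1, and its adjusted p rose to 0.3185 without DMSO replicate 2. An edgeR fit of only the compared groups did not call it either. With a term for the replicate number in the fit, edgeR called it (adjusted p = 0.002621), beside 3.8% of all genes. Against 6N, FOXA1 with 6N-10CA differed by -0.16 (SE 0.05, edgeR adjusted p = 0.1049, DESeq2 adjusted p = 0.02821, with 2.07% of all genes called by DESeq2) and against 10CA by -0.10 (SE 0.05, edgeR adjusted p = 0.5891). Over all 6 groups together edgeR's F-test gave FOXA1 an adjusted p of 0.06728, DESeq2 0.004013, and edgeR without Ethanol replicate 1 gave 0.04. The summed level of the 6 biliary markers also reached its lowest values with 6N-10CA, at 1760 to 1840 CPM, which overlap the 1830 to 1910 CPM with 6N. DMSO held 2030 to 2230 CPM, and KRT7 and CFTR were near 0. The sum does not stand for each marker. Of the 4 tested, edgeR called 1 lower with 6N-10CA against DMSO, beside 0.264% of all genes called. Their median log2 fold change was -0.04 against DMSO and 0.06 against 6N. The part of the biliary markers in the FOXA1 result was not tested. Exons of FOXA1 and of the antisense gene TTC6 share 16 bases; as no source used here gives the strandedness, reads of the shared bases cannot be told apart.

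FOXA2 (ENSG00000125798.14, chromosome 20, 22581005 to 22585455, minus strand) acts with FOXA1 in liver specification and controls fasting genes in the adult organ. Its values were 95, 78.1 and 93.6 CPM with DMSO and 87.7, 82.4 and 85.3 CPM with 6N. They were 96.5, 75.7 and 91.7 CPM with 10CA and 103, 92.7 and 97.6 CPM with 6N-10CA. Ethanol gave 89.5, 86.7 and 89.1 CPM and DLPC 96.8, 89.3 and 97.8 CPM. The replicate 2 library was the lowest in each of the 6 groups. The libraries with 6N-10CA were all above those with 6N, by a log2 fold change of 0.20 (SE 0.08, 95% interval 0.03 to 0.36, edgeR adjusted p = 0.2417), and overlapped those with DMSO. With a term for the replicate number edgeR called this difference from 6N (adjusted p = 0.01328), beside 8.32% of all genes. In GENCODE release 29 the gene AL121722.1 shares 70 exonic bases with FOXA2 on the same strand, so reads of those bases cannot be assigned to either.

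FOXA3 (ENSG00000170608.2, chromosome 19, 45863989 to 45873797, plus strand), a family member of adult hepatocytes, was near 25 CPM in 10CA, whose libraries held 24.6, 23.6 and 25 CPM. With 6N it was at 29.5, 29.4 and 26.8 CPM and with 6N-10CA at 30.9, 26.5 and 28.3 CPM, all above the 10CA values. DMSO (23.4, 24.8 and 28.6 CPM) spanned from the 10CA values to those of 6N. The difference of 10CA against 6N was -0.23 (SE 0.09, edgeR adjusted p = 0.2506) and that of 6N-10CA against 10CA 0.23 (SE 0.09, edgeR adjusted p = 0.4825); these comparisons share the 10CA libraries. Ethanol held 22.5 to 27.1 CPM and DLPC 23.6 to 29.5 CPM.

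The FOXA1 share of the summed FOXA level per kb was 34.8%, 38.8% and 37.0% with 6N-10CA. With DMSO it was 41.3%, 46.7% and 40.5%, above all of these. The mean share was 36.9 ± 1.99% with 6N-10CA, 42.0 ± 0.637% with 6N, 41.5 ± 3.37% with 10CA, 42.8 ± 3.36% with DMSO, 42.7 ± 2.17% with Ethanol and 40.3 ± 2.04% with DLPC (SD, n = 3). No test was made of these shares, which rest on the same counts as the values above.

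CEBPA (ENSG00000245848.2, chromosome 19, 33299934 to 33302564, minus strand, a single exon) is a bZIP factor that holds hepatocytes in a differentiated, non-dividing state and drives metabolic genes. It was measured at 263, 243 and 219 CPM with DMSO, 292, 283 and 241 CPM with 6N and 267, 228 and 208 CPM with 10CA. With 6N-10CA it was at 298, 267 and 242 CPM, with Ethanol at 261, 261 and 214 CPM and with DLPC at 293, 289 and 237 CPM. The groups overlapped in every comparison, and the replicate 3 library was the lowest in each of the 6 groups.

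Within a replicate number, CEBPA was higher than the vehicle in 3 of 3 pairs with 6N, with 6N-10CA and with DLPC. The log2 differences for replicates 1, 2 and 3 were 0.15, 0.22 and 0.14 for 6N against DMSO. They were 0.18, 0.13 and 0.15 for 6N-10CA against DMSO, and 0.16, 0.14 and 0.15 for DLPC against Ethanol. With 10CA the sign was mixed, at 0.02, -0.09 and -0.07 against DMSO. All 3 pairs went the same way for 4 of the 8 factors with 6N, 5 with 6N-10CA and 3 with DLPC. The share of all genes with such pairs was not computed. The fitted log2 fold changes of CEBPA were 0.17 for 6N, -0.04 for 10CA, 0.15 for 6N-10CA and 0.15 for DLPC (SE 0.11 each). With edgeR and no term for the replicate number, the adjusted p-values were 0.7216, 0.96, 0.694 and 0.594 in that order, and none passed in this fit. With such a term the SE was 0.04 each. That fit called CEBPA with 6N, 6N-10CA and DLPC, beside 3.72%, 3.8% and 6.74% of all genes. The comparisons of 6N, 10CA and 6N-10CA share the DMSO libraries, and the dose of DLPC differs from that of the small molecules. In GENCODE release 29 the antisense transcripts AC008738.3 and AC008738.5 cover 659 and 482 bases of the CEBPA exon, and their reads could not be told apart from those of CEBPA without strand.

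CEBPB (ENSG00000172216.5, chromosome 20, 50190734 to 50192689, plus strand, a single exon) is the family member induced by inflammatory and hormonal signals. Its libraries were at 39.2, 36.0 and 39.7 CPM with DMSO, 42.1, 39.1 and 36.3 CPM with 6N and 45.9, 32.4 and 38.2 CPM with 10CA. Those with 6N-10CA were at 43.9, 33.7 and 38.3 CPM, and those with DLPC at 42.2, 36.4 and 45.2 CPM. The highest and the lowest of all 18 values, 45.9 and 32.4 CPM, came from the same group, 10CA. Ethanol, at 45, 40.7 and 41.6 CPM, lay above DMSO in all libraries, by 0.15 (SE 0.11, edgeR adjusted p = 1). The fold changes against vehicle were 0.03 for 6N, 0.02 for 10CA, 0.01 for 6N-10CA and -0.04 for DLPC on the log2 scale, with an SE of 0.11 each. The antisense transcript CEBPB-AS1 overlaps 231 exonic bases of CEBPB, with the same limit as for CEBPA.

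The ratio of CEBPA to CEBPB per kb was 4.70 ± 0.529 with DMSO, 5.16 ± 0.230 with 6N, 4.53 ± 0.622 with 10CA and 5.20 ± 0.608 with 6N-10CA (SD, n = 3). It was 4.30 ± 0.477 with Ethanol and 4.98 ± 1.00 with DLPC. The libraries of each treatment overlapped those of its vehicle, and the ratio was not tested.

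ONECUT1 (ENSG00000169856.8, chromosome 15, 52756989 to 52791078, minus strand) controls biliary and hepatocyte differentiation. It was at 10.5, 8.46 and 12.4 CPM with DMSO, the widest group, and at 11.1, 12.2 and 14.2 CPM with 6N. It was at 11.5, 9.82 and 11.3 CPM with 10CA and at 12.4, 12.2 and 13 CPM with 6N-10CA. Ethanol gave 11.1, 11.8 and 11.8 CPM and DLPC 11.8, 14.1 and 12.7 CPM. All DLPC values were above the Ethanol values, though the groups touch at 11.8 CPM at this rounding. The log2 fold change against DMSO was 0.26 for 6N (SE 0.12, 95% interval 0.01 to 0.50, edgeR adjusted p = 0.5004) and 0.26 for 6N-10CA (SE 0.12, 95% interval 0.01 to 0.50, edgeR adjusted p = 0.476). Both depend on the low DMSO replicate 2 library, and without it both were 0.13; without DMSO replicate 3 both were 0.40. DLPC differed from Ethanol by 0.16 (SE 0.12, edgeR adjusted p = 0.62) and 10CA from DMSO by 0.06 (SE 0.12, edgeR adjusted p = 0.9469).

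PROX1 (ENSG00000117707.15, chromosome 1, 213983181 to 214041502, plus strand) is a homeodomain factor needed for hepatocyte migration in the embryo. Its libraries held 86.0, 82.6 and 91.4 CPM with DMSO, 78.4, 85.3 and 95.4 CPM with 6N and 87.5, 91.3 and 96.4 CPM with 10CA. With 6N-10CA they held 87.6, 97.5 and 105 CPM, with Ethanol 87.5, 97.5 and 99.4 CPM and with DLPC 90.2, 93.9 and 97.8 CPM. The replicate 3 library was the highest in each of the 6 groups. The log2 fold change of 6N-10CA was 0.16 against DMSO (SE 0.07, 95% interval 0.01 to 0.31, edgeR adjusted p = 0.4824) and 0.17 against 6N (SE 0.07, edgeR adjusted p = 0.3082). It was 0.08 for 10CA against DMSO, -0.01 for 6N against DMSO and -0.01 for DLPC against Ethanol, with an SE of 0.07 each. With a term for the replicate number edgeR called PROX1 in 6N-10CA against DMSO (adjusted p = 0.03869) and against 6N (adjusted p = 0.01634). That fit called 3.8% and 8.32% of all genes there. The vehicles themselves differed by 0.13 (SE 0.07, Ethanol higher in 3 of 3 same-numbered pairs, edgeR adjusted p = 1). All 3 pairs of the vehicles went the same way for 2 of the 8 factors. The transcript PROX1-AS1 overlaps 171 exonic bases of PROX1 on the other strand.

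GATA4 (ENSG00000136574.17), a zinc finger factor of endoderm and heart, was the steadiest of the 8. It was at 107, 122 and 117 CPM with DMSO, 115, 124 and 121 CPM with 6N and 110, 119 and 110 CPM with 10CA. It was at 111, 112 and 110 CPM with 6N-10CA, 112, 117 and 110 CPM with Ethanol and 111, 124 and 110 CPM with DLPC. 6N had the highest library within each replicate number. The libraries with 6N-10CA were all below those with 6N, by a log2 fold change of -0.11 (SE 0.06, edgeR adjusted p = 0.3664), and against vehicle the 4 values lay between -0.05 and 0.06.

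**Figure D3:**
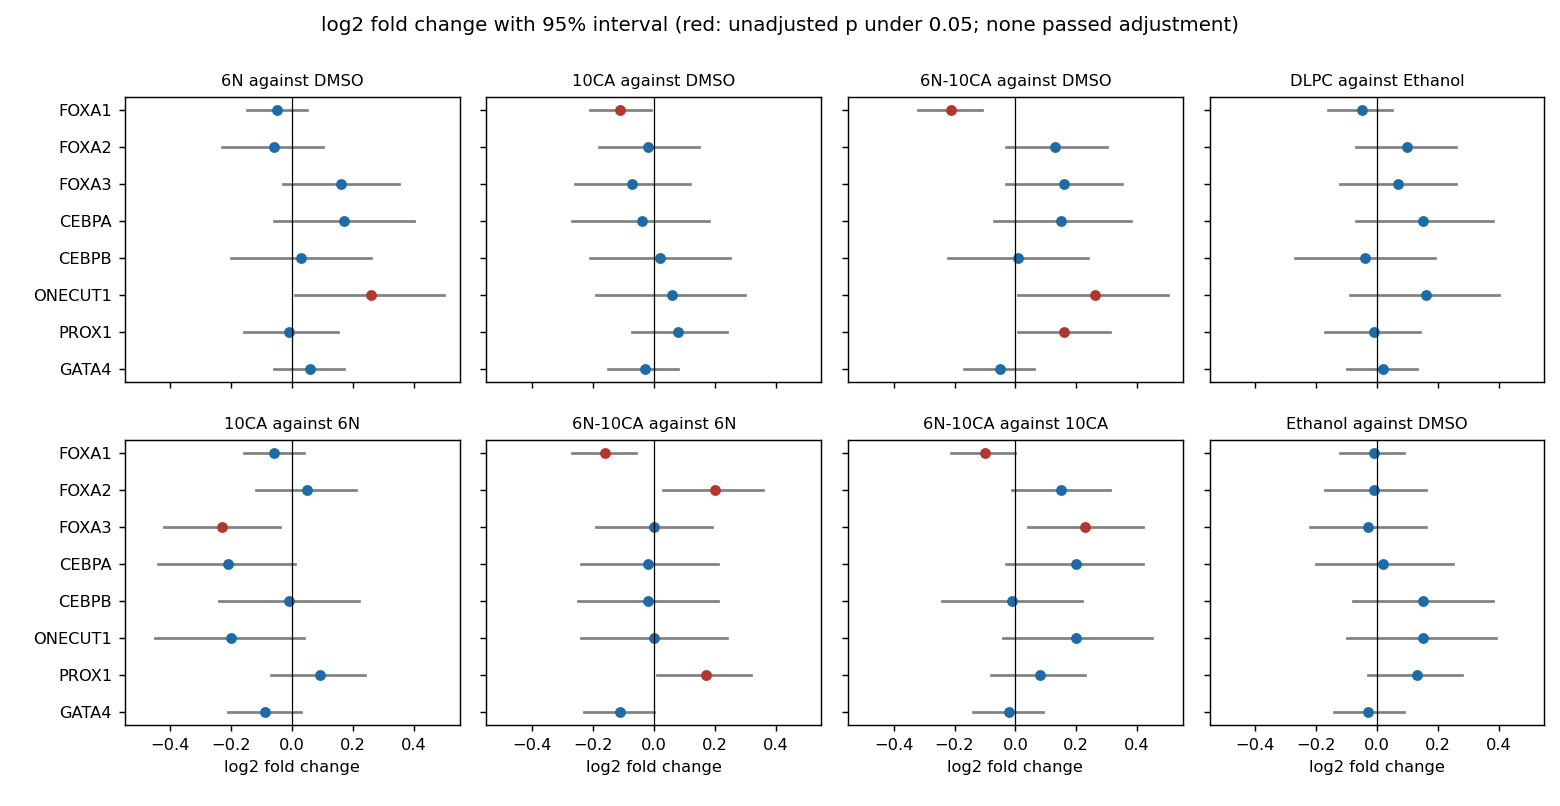
log2 fold change of each factor with its 95% interval (edgeR) in the 8 comparisons; red points have an unadjusted p under 0.05. FOXA1 in 6N-10CA lies farthest from no change relative to its interval, at -0.21 against DMSO. No point passed the threshold after adjustment in this fit without a term for the replicate number.

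The counts by comparison that follow come from fits without a term for the replicate number. Fits with such a term, which called some of the factors, are described in the last section. Set against DMSO, 6N left all 8 factors uncalled by edgeR, DESeq2 and limma-voom without that term. In edgeR 1 of 8, ONECUT1, had an unadjusted p under 0.05, as did 9.35% of all tested genes, and 1.14% were called. FOXA1 was the only factor whose libraries did not overlap, 131 to 132 against 132 to 144 CPM, which touch at this rounding, and 13.6% of all genes did not overlap. The factors' median log2 fold change was 0.04 beside 0 for all genes.

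With 10CA against DMSO, edgeR, DESeq2 and limma-voom called 0 of 8, and 1 of 8, FOXA1 at -0.11 (SE 0.05, edgeR adjusted p = 0.6797), had an unadjusted p under 0.05. edgeR called 0% of all genes, with 1033 at an unadjusted p under 0.05, while DESeq2 called 16 and limma-voom 0. Non-overlap was seen for FOXA1, whose groups touch at 132 CPM at this rounding, and for 12.8% of all genes. The factors' median was -0.02.

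With 6N-10CA against DMSO, 0 of 8 were called by edgeR and by limma-voom and 1, FOXA1, by DESeq2. In edgeR an unadjusted p under 0.05 was found for 3 of 8, FOXA1 lower and ONECUT1 and PROX1 higher, and for 9.91% of all genes. After adjustment edgeR called 0.264% of all genes. Libraries did not overlap for FOXA1, and for 14.8% of all genes. The median log2 fold change of the 8 was 0.14, the farthest from the 0 of all genes in any comparison.

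With DLPC against Ethanol, edgeR, DESeq2 and limma-voom called 0 of 8 without a term for the replicate number. An unadjusted edgeR p under 0.05 was found for 0 of 8 and for 13% of all genes, and edgeR called 1.04% of all genes. ONECUT1, whose groups touch at 11.8 CPM at this rounding, was the factor without overlap, as were 19.2% of all genes, and the median was 0.05.

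Between small molecules at the same dose, 10CA against 6N gave 0 of 8 calls by each of the 3 tools without a term for the replicate number. It gave 1 unadjusted edgeR p under 0.05, that of FOXA3, which also did not overlap. Of all genes 13.9% had an unadjusted p under 0.05 there, edgeR called 1.71% and 16.7% did not overlap. 6N-10CA against 6N gave 0 of 8 by edgeR and limma-voom and 1, FOXA1, by DESeq2. FOXA1, FOXA2 and PROX1 had an unadjusted p under 0.05 in edgeR, as did 14.4% of all genes, and edgeR called 1.64% of all genes. FOXA1, FOXA2 and GATA4 did not overlap there, 3 of 8, as did not 17.7% of all genes. 6N-10CA against 10CA gave 0 of 8 by each of the 3 tools without a term for the replicate number, and edgeR called 0.23% of all genes. In edgeR 2 factors, FOXA1 and FOXA3, had an unadjusted p under 0.05, as did 8.4% of all genes. FOXA1, FOXA3 and ONECUT1 did not overlap, 3 of 8, beside 12.5% of all genes. The medians of the 8 factors were -0.08, -0.01 and 0.11 in these comparisons, which share groups with each other.

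Ethanol against DMSO gave 0 of 8 by each of the 3 tools and 0 unadjusted p under 0.05. edgeR called 0% of all genes, with 479 at an unadjusted p under 0.05, DESeq2 12 and limma-voom 0. CEBPB did not overlap, nor did 8.25% of all genes. Over all 6 groups together edgeR called 5.23% of all genes and 0 of the 8, limma-voom 0 and DESeq2 1, FOXA1, beside 6.42% of all genes. Of the 8, FOXA1 alone had an unadjusted edgeR p under 0.05, 0.004233, a threshold that 2945 of 14797 tested genes met.

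Across the 64 pairs of a factor and a comparison, 62 had a 95% interval that lay within 0.5 of no change on the log2 scale. The half-width of these intervals ran from 0.10 to 0.24. Differences larger than 0.5 were therefore outside the interval for those 62 pairs. The other pairs were ONECUT1 in the 6N and 6N-10CA comparisons with DMSO. Their upper bound was 0.50 at this rounding, which does not place it above or below 0.5.

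The replicate number accounted for much of the spread of several factors. Of the sum of squares of log2 CPM over the 18 libraries, the replicate number took 62.8% for CEBPA, 51% for CEBPB, 49.8% for PROX1, 48.8% for GATA4 and 43.8% for FOXA2. It took 16.0% for ONECUT1, 14.9% for FOXA1 and 10.6% for FOXA3, beside a median of 18.4% over all tested genes. The group took 70.3% for FOXA1, the most of the 8, and between 16.2% and 45% for the others, beside a median of 36.7%.

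The direction differed between the factors. CEBPA averaged 279, 262 and 227 CPM over the 6 libraries of numbers 1, 2 and 3. PROX1 ran the other way, at 86.2, 91.3 and 97.6 CPM. CEBPB (43.1, 36.4 and 39.9 CPM) and FOXA2 (94.7, 84.1 and 92.5 CPM) were lowest in number 2, where GATA4 was highest (111, 120 and 113 CPM). The GC content of the transcripts was 65.9% for CEBPA, 66.2% for CEBPB and 40.7% for PROX1, beside a median of 48.4% over 10323 genes. It was 61.1% for GATA4, 60.8% for FOXA3, 58.2% for FOXA2, 58.1% for ONECUT1 and 51.3% for FOXA1. The log2 deviation of number 1 was 0.13 for CEBPA, 0.12 for CEBPB, 0.07 for FOXA2 and -0.09 for PROX1. It was -0.04 for GATA4 and for ONECUT1, -0.03 for FOXA1 and 0 for FOXA3, though these are also above the median in GC. Across genes, which are not independent, GC content correlated with the deviation of number 1 at r = 0.39, of number 2 at -0.28 and of number 3 at -0.15; its part in the factors' values was not tested.

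**Figure D4:**
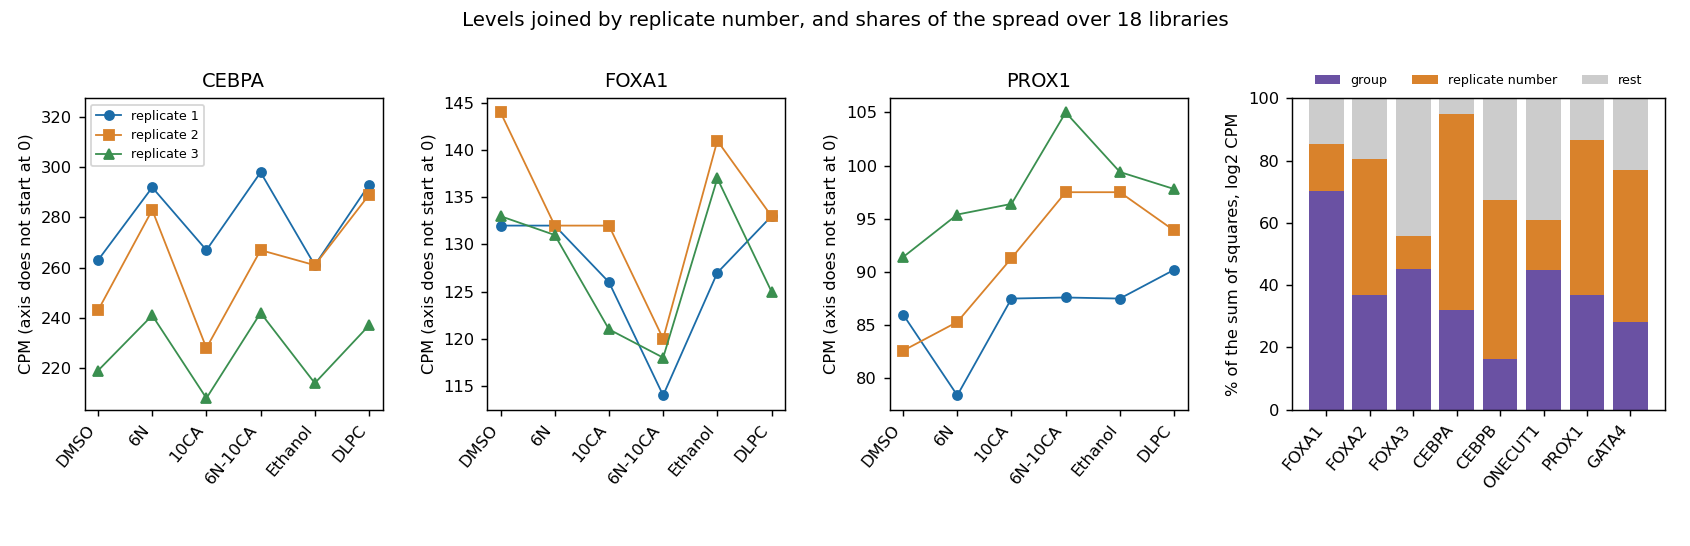
CPM of CEBPA, FOXA1 and PROX1 with libraries of the same replicate number joined across groups (axes do not start at 0), and for all 8 factors the share of the sum of squares of log2 CPM taken by group, replicate number and rest. The CEBPA lines run nearly parallel with number 3 lowest throughout, and FOXA1 has the largest group share, 70.3%.

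Pairs of factors moved together or apart over the 18 libraries, given here as Pearson's r of log2 CPM and as a description only, since the points share groups, replicate numbers and scaling. The strongest were FOXA2 with GATA4 at -0.72 and FOXA1 with FOXA2 at -0.65. FOXA2 and CEBPB stood at 0.60, and ONECUT1 and PROX1 at 0.52. With the mean of each replicate number subtracted, these pairs stood at -0.47, -0.57, 0.28 and 0.43 in that order. CEBPA and ONECUT1 stood at 0.15, and at 0.79 once the mean of each replicate number was subtracted. CEBPA and PROX1 stood at -0.49, and at 0.15 after the same step.

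The genes most like each factor over the 18 libraries, among 12590 genes of at least 1 CPM, were found by the same r. For FOXA1 they were SLC39A7 (0.86), IFFO1 (0.85) and RPSAP9 (0.84), the last a pseudogene of low level whose reads may come from its parent gene. For FOXA2 they were PPDPF (0.93), IGF2 (0.91) and CYB5R3 (0.91), and for FOXA3 ACAD8 (0.77), CALM3 (0.75) and COX17 (0.74). For CEBPA they were ZNF57 (0.89), TRIM47 (0.87) and CHDH (0.87). The r of TRIM47 with CEBPA was 0.98 after group means were subtracted and 0.66 after replicate number means were subtracted. For CEBPB they were CTDSP1, NDUFAF3 and TTYH3 (0.87 each), and for ONECUT1 ZNF852 (0.84), CCDC174 (0.84) and SORCS2 (0.82). For PROX1 they were ZNF292 (0.90), SCN1A (0.89) and NEDD9 (0.88), and for GATA4 RDH13 (0.91), DPP9 (0.88) and SAFB2 (0.87). After subtraction of replicate number means the 24 values ran from 0.66 to 0.89, and after subtraction of group means from 0.57 to 0.98.

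Relatives of the factors within their families were described in the same way. Of 16 relatives 13 were tested, and edgeR and limma-voom, without a term for the replicate number, called 0 in any of the 8 comparisons. There edgeR called 3.6% of all tested genes at least once. Over the 13 genes in 8 comparisons edgeR gave 6 unadjusted p under 0.05 and DESeq2 2 calls. Per comparison 3.24% to 14.4% of all genes had such a p in edgeR, and DESeq2 called 0.048% to 2.07%. Per library the forkhead gene FOXQ1 was the highest of them, at 196 to 228 CPM, and CEBPG, a C/EBP partner without an activation domain, was at 70.0 to 83.2 CPM. CEBPD, at 29.3 to 38.6 CPM, GATA6, at 5.87 to 14.0 CPM, and ONECUT2, at 5.61 to 8.06 CPM, were also present. CEBPE, GATA3 and PROX2 did not pass the filter, with no library above 0.36 CPM. The median log2 fold change of the list lay between -0.04 and 0.06 in the 8 comparisons, beside 0 for all genes.

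Of the 18 cofactors and modifiers all were tested, and 1, TRIB3, was called in at least 1 comparison, beside the 3.6% of all genes. TRIB3 is a pseudokinase of the stress response whose relatives TRIB1 and TRIB2 promote the breakdown of CEBPA protein. It was at 363, 378 and 366 CPM with DMSO and at 314, 315 and 307 CPM with 6N. The 10CA libraries held 359, 382 and 372 CPM and those with 6N-10CA 405, 384 and 411 CPM. TRIB3 fell by 0.24 on the log2 scale with 6N against DMSO (SE 0.05, edgeR adjusted p = 0.007866), though not past the threshold without DMSO replicate 2 (adjusted p = 0.05353). It was higher by 0.25 with 10CA than with 6N (SE 0.05, edgeR adjusted p = 0.005358) and by 0.36 with 6N-10CA than with 6N (SE 0.05, edgeR adjusted p = 0.0001027). The median of the list lay between -0.01 and 0.09 in the 8 comparisons.

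Of 19 other liver transcription factors, all tested, 3 were called in at least 1 comparison, beside the same 3.6% of all genes. HLF, a clock-output bZIP factor, rose with DLPC, at 227, 221 and 224 CPM against 197, 194 and 193 CPM with Ethanol (log2 fold change 0.20, SE 0.04, edgeR adjusted p = 0.01193). NFIL3, a bZIP repressor that binds the same kind of site as HLF, rose to 100, 106 and 106 CPM with DLPC from 85.3, 89.4 and 92.3 CPM (0.23, SE 0.05, edgeR adjusted p = 0.03025). BHLHE40, a repressor of the clock and of hypoxia responses, was at 111, 118 and 129 CPM with 6N. It was at 188, 141 and 151 CPM with 10CA and at 179, 158 and 155 CPM with 6N-10CA, log2 differences from 6N of 0.42 (SE 0.10, edgeR adjusted p = 0.04256) and 0.46 (SE 0.10, edgeR adjusted p = 0.02675). The medians of the list lay between -0.04 and 0.10.

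Each of these calls depended on single libraries. HLF lost its call without Ethanol replicate 2 or 3 or DLPC replicate 1 or 3 (adjusted p up to 0.07291). NFIL3 lost it without Ethanol replicate 1 or 2 or any DLPC library (adjusted p up to 0.1394). BHLHE40 lost it for 6N-10CA against 6N without 6N replicate 1 or 2 or any 6N-10CA library (up to 0.1252). For 10CA against 6N it was lost in 11 of the 18 omissions: DMSO replicate 3, 6N replicates 1 and 2, 10CA replicates 1 and 3, 6N-10CA replicates 2 and 3, any Ethanol library and DLPC replicate 3 (up to 0.1927). Without 10CA replicate 1 the log2 fold change was 0.28 (adjusted p = 0.1789).

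Of 13 tested hepatocyte genes known to depend on FOXA factors, 0 were called by edgeR or limma-voom in the 8 comparisons without a term for the replicate number, beside 3.6% of all genes. Over these 13 genes in 8 comparisons edgeR gave 18 unadjusted p under 0.05 and DESeq2 6 calls. Per comparison 3.24% to 14.4% of all genes had such a p in edgeR, and DESeq2 called 0.048% to 2.07%. TF (transferrin) was at 14800 to 21700 CPM, AFP at 10500 to 13100 CPM, APOA1 at 9500 to 12000 CPM and ALB at 8060 to 10600 CPM. PCK1 was lower, at 4.63 to 21 CPM. TDO2 did not pass the filter, with at most 3 counts in a library. In 6N-10CA, where FOXA1 was lowest, their median log2 fold change against DMSO was 0.04, and it lay between -0.08 and 0.09 over the 8 comparisons.

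Of 14 hepatocyte genes known to depend on C/EBP factors 13 had a row in the count table and 11 were tested. In at least 1 comparison edgeR called 3 of them, beside 3.6% of all genes. CRP had 0 counts in all libraries and SAA1 at most 5. ORM1, an acute phase glycoprotein with a near-identical copy that makes its counts uncertain, was at 449, 448 and 460 CPM with DMSO. It rose to 566, 547 and 519 CPM with 6N (log2 fold change 0.27, SE 0.04, edgeR adjusted p = 0.0004417) and to 535, 507 and 516 CPM with 6N-10CA (0.20, SE 0.04, edgeR adjusted p = 0.02953). With 10CA it was at 460, 448 and 440 CPM, lower than with 6N by 0.28 (log2 fold change -0.28, edgeR adjusted p = 0.0002831) and lower than with 6N-10CA (0.21, edgeR adjusted p = 0.01818). HAMP, the iron hormone hepcidin, was at 22.7, 23.9 and 20.9 CPM with DMSO, 21.6, 21.4 and 16.2 CPM with 10CA and 36.8, 35.1 and 31.9 CPM with 6N-10CA. HAMP with 6N, at 30, 35.4 and 25.6 CPM, was above all DMSO values but not called against DMSO (0.43, SE 0.13, edgeR adjusted p = 0.1548).

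The called HAMP differences were 0.62 for 6N-10CA against DMSO (SE 0.13, edgeR adjusted p = 0.04188), -0.62 for 10CA against 6N (SE 0.13, edgeR adjusted p = 0.01259) and 0.81 for 6N-10CA against 10CA (SE 0.13, edgeR adjusted p = 0.005278). HP (haptoglobin), which has a close copy in the genome, fell with DLPC to 165, 170 and 161 CPM from 226, 224 and 199 CPM with Ethanol (log2 fold change -0.39, SE 0.07, edgeR adjusted p = 0.006935). HAMP lost its call against DMSO without any of the DMSO or 6N-10CA libraries, or without 6N replicate 1, Ethanol replicate 3 or DLPC replicate 3 (adjusted p up to 0.2287), and in 10CA against 6N without 6N replicate 2 or 10CA replicate 3 (up to 0.09105). ORM1 lost its call for 6N-10CA against DMSO without any DMSO library, 6N-10CA replicate 1 or 6N-10CA replicate 3 (up to 0.1288), and against 10CA without replicate 2 or 3 of 10CA or replicate 1 or 3 of 6N-10CA (up to 0.1388). With Ethanol in place of DMSO neither passed for 6N-10CA, at 0.37 for HAMP (adjusted p = 0.2642) and 0.15 for ORM1 (adjusted p = 0.1031). The list's medians lay between -0.08 and 0.05.

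**Figure D5:**
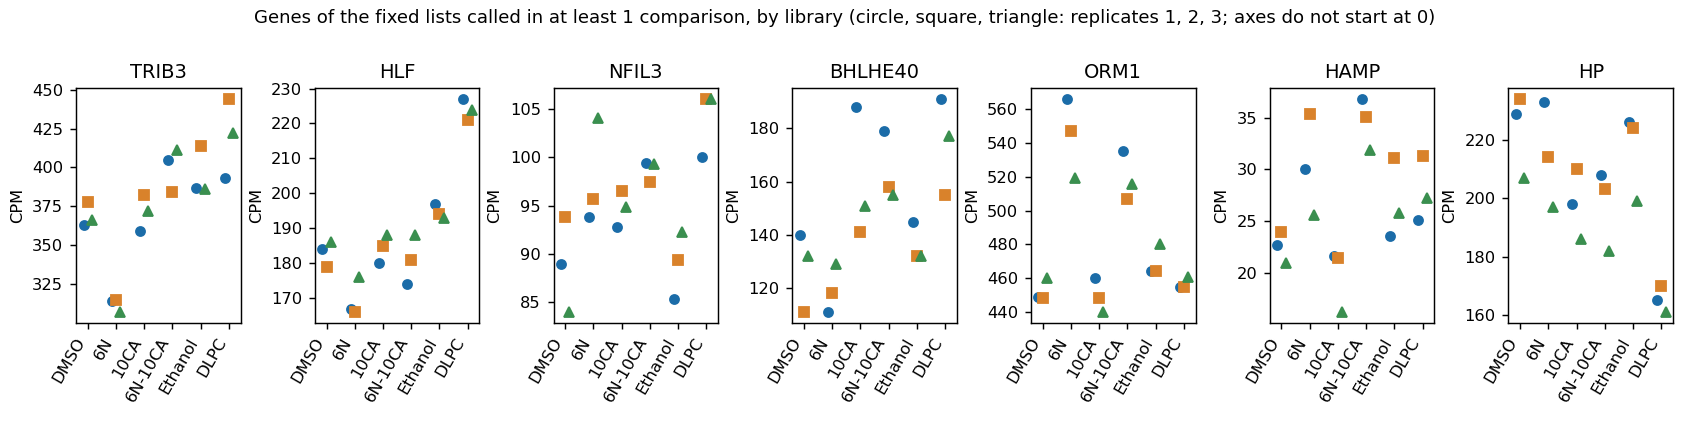
CPM by library and group of the 7 genes from the lists that edgeR called in at least 1 comparison (axes do not start at 0; symbols mark replicates 1, 2 and 3). ORM1 and HAMP are higher in 6N and 6N-10CA than in 10CA. ORM1 with 10CA, at 440 to 460 CPM, overlaps DMSO, and HAMP with 6N, at 25.6 to 35.4 CPM, overlaps Ethanol and DLPC. HP is lowest with DLPC at 161 to 170 CPM, and TRIB3 is lowest with 6N at 307 to 315 CPM.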

How the data were processed

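RNA from 18 libraries of HepG2 cells was measured by single-end sequencing of amplified cDNA made into Nextera XT libraries, per the labels' protocols. Raw counts, whole numbers by gene symbol, were deposited by the authors in a single table of all libraries, per the file headers and values. GRCh38 as build and DESeq2 as a tool, with no version, come from the submitters' processing notes; aligner, counter, annotation and strandedness were not given in the sources used here. The 28 rows whose symbols had become dates are never named.

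Genes were kept by edgeR's filterByExpr (minimum count 10, total 15), leaving 14797 with 99.96% of counts. The 18 libraries entered 1 fit with a mean per group and TMM scaling, edgeR 4.0.16 in R 4.3.3, and the test of every contrast was edgeR's quasi-likelihood test, two-sided, adjusted over all tested genes by Benjamini-Hochberg, threshold 0.05. The biological coefficient of variation was 6.96%, and 4.42% with a term for the replicate number. CPM uses TMM-scaled library sizes, and log2 CPM a prior count of 2. Correlations with the factors used genes of at least 1 CPM. The scripts were tested on simulated data. DESeq2 1.42.0, limma-voom (limma 3.58.1), other scalings, no filter, the other vehicle, both vehicles, fits of only the compared groups, omission of each library and a replicate block were alternatives. Replicates differed by a chi-square of 4.59 to 14.2 per gene, so none was a copy.

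The 8 factors and all gene lists were chosen with earlier results of these data known. All 8 factors are named in every comparison; of each list, the called genes, at most 4 per comparison by p, and for each factor the 3 genes with the highest r. The noncoding genes next to the factors, and the promoters of FOXA2, PROX1 and GATA4, were not analysed here. Gene positions and lengths come from GENCODE release 29 by symbol.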

Additional observations from a re-analysis of the deposited data

How the results depend on the processing

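Without a replicate block, 0 of 8 factors were called in each comparison under other scalings, no filter, limma-voom, fits of only the compared groups and the other vehicle. DESeq2 called 1, FOXA1, in 6N-10CA against DMSO, in 6N-10CA against 6N and over the 6 groups, where it called 0.692%, 2.07% and 6.42% of all genes, and averaging both vehicles called 1, FOXA1, in 6N-10CA against DMSO, beside 0.872% of all genes. Leaving out 1 library at a time gave 0 to 1 calls over the 6 groups (FOXA1, without Ethanol replicate 1) and 0 in the 8 comparisons; the cause was not tested. Single-factor directions were not reversed past the threshold under any alternative run.

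The replicate numbers were checked as a pairing: same-numbered libraries of different groups deviated together at r = 0.00361 to 0.182 over all tested genes, above 0.1 in 15 of 45 pairs, so the numbers were not taken as pairs. Each of the 18 libraries had its highest mean r with its own number, a hint from the data and not the design. If the numbers do mark pairs, the fit without the block overstates the SE, for CEBPA 0.11 beside 0.04 with the block. Over the 7503 genes of at least 20 CPM, an alternative chosen after seeing the data, r was 0.208 to 0.749 in the 24 pairs of the compared groups. With the replicate block edgeR called 1 factor, CEBPA, in 6N against DMSO (adjusted p = 0.01083), DLPC against Ethanol (0.01721), 10CA against 6N (0.0008269) and 6N-10CA against 10CA (0.00488). It called 3 in 6N-10CA against DMSO (FOXA1, CEBPA and PROX1; 0.002621, 0.02596 and 0.03869), 3 in 6N-10CA against 6N (FOXA1, FOXA2 and PROX1; 0.008025, 0.01328 and 0.01634), 4 over the 6 groups (FOXA1, FOXA2, CEBPA and PROX1) and 0 in 10CA or Ethanol against DMSO. Of all genes the block called 3.72% in 6N against DMSO, 0.216% in 10CA against DMSO, 3.8% in 6N-10CA against DMSO, 6.74% in DLPC against Ethanol, 7.66% in 10CA against 6N, 8.32% in 6N-10CA against 6N, 2.36% in 6N-10CA against 10CA, 0.122% in Ethanol against DMSO and 21.3% over the 6 groups. With the block, 7 of the 13 FOXA-dependent genes were called in at least 1 comparison, 7 of the 11 C/EBP-dependent genes, 8 of the 19 other liver transcription factors, 5 of the 18 cofactors and 3 of the 13 relatives, beside 18.1% of all genes; of the FOXA-dependent genes 5 rose in DLPC against Ethanol, 3 in 6N-10CA against 6N, 2 in 6N-10CA against DMSO, 2 in 10CA against 6N and 2 in 6N-10CA against 10CA, and in 6N against DMSO 1 rose and 2 fell. DESeq2 and limma-voom with the block, added after seeing the data, gave the same counts of 1, 3 and 4 for the same factors. The block with 1 replicate number left out, also added, gave 0 to 2 calls in 6N-10CA against DMSO, 0 to 1 in 6N-10CA against 6N and against 10CA, 1 in 10CA against 6N, 2 to 3 over the 6 groups and 0 in the other 4 comparisons. Fits of only the compared groups ended the calls of NFIL3 in DLPC against Ethanol, BHLHE40 and HAMP in 10CA against 6N, and ORM1 in 6N-10CA against DMSO and against 10CA. Depth limits ONECUT1 most, with 258 to 440 counts.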
